A study of Mus musculus with 12 samples.

Results

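The genes described here code for the proteins of the cytosolic ribosome. They were chosen by name: every probe whose gene name in the array files begins with Rpl or Rps and a digit, together with Rplp0, Rplp1, Rplp2 and Rpsa, and without the Rps6k kinases. The rule took 192 probes of 92 genes out of 56605 probes on the array. A probe was kept where its signal was well above background on at least 2 of the 12 arrays, which left 190 ribosomal protein probes of 91 genes among 37125 probes. The only probe of Rpl10l and 1 probe of Rpl11 were too dim. The rule also takes in 5 genes named as pseudogenes, 7 paralogues such as Rpl3l and Rps27l, and 2 other names (Rps19bp1 and Rpl37rt), and it leaves out genes such as Fau and Gnb2l1, whose products are also ribosomal proteins.

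Ribosomal proteins bind ribosomal RNA in the nucleolus to form the small and the large ribosomal subunit, and the stalk proteins Rplp0, Rplp1 and Rplp2 recruit the translation factors. Their mRNAs are among the most abundant of any cell. Most begin with a run of pyrimidines, the 5′ terminal oligopyrimidine or TOP motif, through which mTOR and the RNA-binding protein LARP1 set how far they are translated, so that ribosome production can change without a change in mRNA level.

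Whole ear skin of C57BL/6J mice was compared between 5 genotypes, namely WT, Tlr7-/-, Tlr9-/-, Tlr7-/-Tlr9-/- and Card14-/-, without treatment at 0 h and 4 h after a single dose of 62.5 mg of cream with 5% imiquimod (IMQ), a TLR7 ligand that gives a psoriasis-like dermatitis in mice. Untreated mice received no cream without IMQ, so the cream and its active compound cannot be told apart. The age of the mice and how the knockout alleles were made are not stated in the labels. Equal parts of RNA from 6 to 8 mice were pooled for an array, 200 ng were labelled with Cy3 from oligo-dT primers, and each group had 1 array, apart from treated Tlr7-/-Tlr9-/- and treated Card14-/- skin with 2 each. Whether these pairs of arrays share a pool is not stated. The p-values for single genotypes and for differences from WT measure only the spread between these repeat arrays. For the average response the repeat arrays were averaged first. Its p-values and SE measure how the response varied between genotypes, with pool and slide mixed in. In whole skin, fewer cells of a type and less RNA per cell cannot be told apart.

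The 5 untreated arrays and the treated WT, Tlr7-/- and Tlr9-/- arrays lie on 1 slide, and the 4 treated Tlr7-/-Tlr9-/- and Card14-/- arrays on the other, so the response of those last genotypes cannot be told apart from the slide. Signals were well above background for 60.1% to 65.7% of spots and no spot was saturated. The raw 75th percentile of signal was 1070 to 1236 on untreated arrays and 527 to 779 on treated arrays. Both Tlr7 probes were lower on every array labelled as lacking Tlr7 (log2 levels 3.54 to 5.85) than on the others (6.75 to 8.12), and the Card14 probe read 9.63 to 9.89 against 10.83 to 11.65. The Tlr9 probe read 10.95 to 11.33 on arrays labelled as lacking Tlr9 and 11.05 to 11.39 on the others. It does not check that label, since no source used here says where the probe lies relative to the deleted part.

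Probes are 60 bases long, and 61 of the 91 genes had more than 1. Because several results below depend on which probe reads a gene, the sequences of 5 probes are shown, from the array files and 5′ to 3′. They read Rpl7a, Rpl7, Rpl15 and Rpl30, whose lower signals after IMQ are described below, and Rpl13a, which was low on 1 untreated array. The capitals mark the longest unbroken run of A and G. Its median length over the 190 probes was 6 bases.
Rpl7a: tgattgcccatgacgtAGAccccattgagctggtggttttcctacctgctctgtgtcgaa
Rpl7: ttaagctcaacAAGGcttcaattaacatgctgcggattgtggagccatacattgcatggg
Rpl15: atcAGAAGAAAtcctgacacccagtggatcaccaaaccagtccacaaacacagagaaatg
Rpl30: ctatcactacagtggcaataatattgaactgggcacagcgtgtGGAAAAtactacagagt
Rpl13a: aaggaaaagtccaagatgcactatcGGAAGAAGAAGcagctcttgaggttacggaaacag
In mouse build mm9, as the array files give it, these probes lie at chr2:26767937-26768221 on the plus strand, chr1:16092774-16092833, chr14:19101657-19101716, chr15:34371013-34371072 and chr7:52381388-52381529, the last 4 on the minus strand. The spans of Rpl7a and Rpl13a are longer than the probe, so the probe sequence is interrupted in the genome. Exons of mm9 were not used here. Of the 192 probes, 11 lie on another chromosome than the gene they are named for, and 1 has no position.

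The start sites of these genes were read from RefSeq (GRCm38.p6) as windows of 30 bases, 15 on each side of the annotated start. A window was found for 67 of the 92 genes. A run of at least 8 bases made only of C and T on the gene's strand was present in 27 of the 67 (40.3%), against 13.9% of the 27025 genes of the same table. A run of at least 8 A and G, the same search on the other strand, was present in 3 of the 67 (4.48%), against 15.3% of all. The 8 windows below were picked to show long and short runs, with the longest run of C and T in capitals.
Rpl7a: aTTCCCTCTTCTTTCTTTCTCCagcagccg
Rpl15: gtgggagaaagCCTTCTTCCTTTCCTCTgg
Rpl13a: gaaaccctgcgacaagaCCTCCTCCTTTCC
Rps10: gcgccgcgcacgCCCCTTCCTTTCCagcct
Rpl28: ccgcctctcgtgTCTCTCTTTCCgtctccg
Rps6: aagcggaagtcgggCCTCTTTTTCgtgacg
Rps2: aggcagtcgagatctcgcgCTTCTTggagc
Rpsa: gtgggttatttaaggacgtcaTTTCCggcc
The runs are 21 bases in Rpl7a, 17 in Rpl15, 13 in Rpl13a and Rps10, 11 in Rpl28, 10 in Rps6, 6 in Rps2 and 5 in Rpsa. These are matches of letters only, and the arrays measured mRNA level and not translation.

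Ribosomal protein mRNAs were among the brightest signals in the skin. On a log2 intensity scale, normalized so that all arrays share 1 distribution (quantile normalization), the mean level of the 190 probes ran from 3.56 to 18.22 with a median of 16.2, against 8.00 for all probes, and 163 of the 190 were in the top 10% of all probes. The 75 small subunit probes had a median level of 16.37, the 93 large subunit probes 16.21 and the 5 stalk probes 17.55. The 9 probes of paralogues were dimmer, with a median of 13.73, and Rps19bp1, which codes for a protein that binds Rps19 and is not itself part of the ribosome, read 11.66. Each is a level on its own probe, and a brighter probe need not mean a more abundant mRNA. Rpl37 is read here only by a probe near background (mean level 3.99), while the probe named Rpl37rt read 17.82.

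These levels varied little between arrays. A probe printed 10 times had a median SD of 0.047 within an array (66 probes), and the median SD over the 5 untreated arrays was 0.080 for the ribosomal protein probes and 0.157 for all probes (log2). Between the repeat arrays the median SD was 0.021 and 0.028 for ribosomal protein probes, against 0.055 and 0.054 for all probes. A small spread is not particular to these genes. In the average response described below, the median SE was 0.0861 for ribosomal protein probes, 0.0865 for the top 10% of probes and 0.126 for all. The median ribosomal protein level was 16.25 to 16.31 on the untreated arrays and 16.19 to 16.26 on the 4 treated arrays of the second slide. It was lower on the treated arrays of the first slide, at 15.99 in WT, 16.10 in Tlr7-/- and 16.09 in Tlr9-/- skin. These probes carried 10.55% of the normalized signal in treated WT skin, 11.1% to 11.2% in treated Tlr9-/- and Tlr7-/- skin and 11.9% to 12.2% on the other arrays. In the signals before normalization between arrays the order differed, with 10.9% to 11.5% on untreated and 11.3% to 12.5% on treated arrays.

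**Figure D1:**
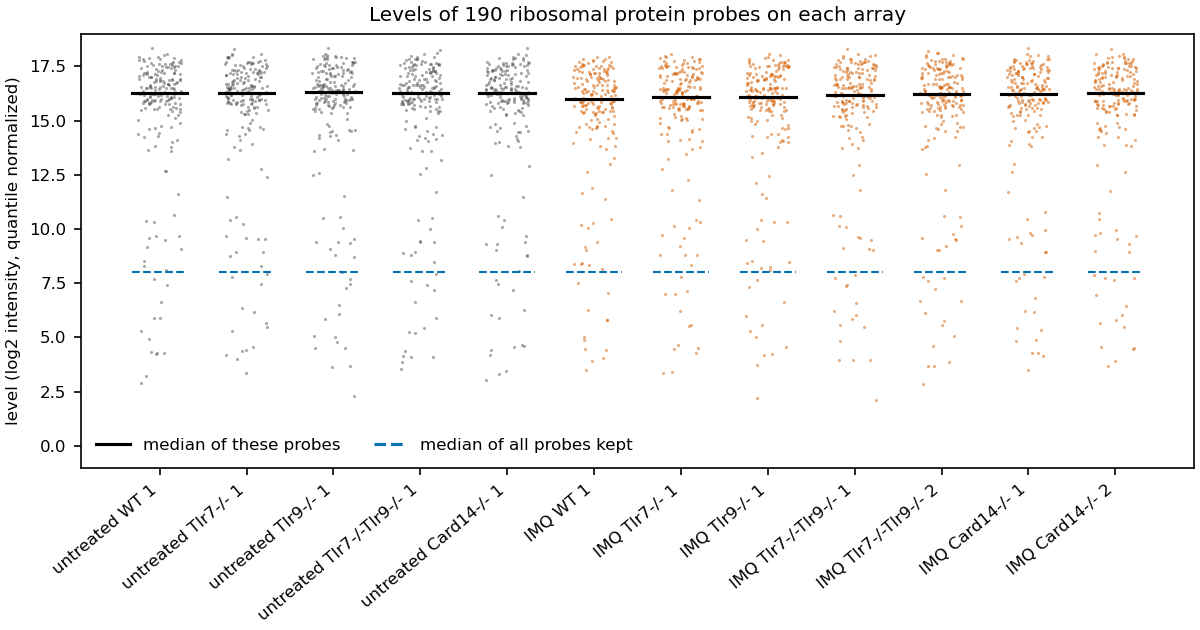
Log2 intensity (quantile normalized) of the 190 ribosomal protein probes on each of the 12 arrays, 1 point a probe, with their median as a solid line and the median of all probes kept as a dashed line. The ribosomal protein median lies 7.98 to 8.29 above that of all probes on every array and is lowest, 15.99, on the treated WT array.

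The first question was how these genes differ between treated and untreated skin over all genotypes. A few genes changed and most did not pass the test. Rpsa of the small subunit rose, and Rpl7a, Rpl7, Rpl15 and Rpl30 of the large subunit fell, by 1.2-fold to 1.39-fold, when each gene was read on its brightest probe. In all there were 2 rises and 4 falls among 91 genes, to compare with 9.89% rising and 14.4% falling of all 24106 genes. In probes, 8 of 190 rose and 12 fell (4 residual degrees of freedom, limma, Benjamini-Hochberg adjusted p under 0.05 over all probes), against 10.6% and 13.6% of all 37125 probes. Bright probes gave fewer calls: of the 3713 in the top 10% of level, 285 rose and 344 fell. Of the 163 ribosomal protein probes among them, 2 rose and 12 fell. The median response of the ribosomal protein probes was -0.11 on the log2 scale, with 130 of 190 below 0, against -0.07 for all probes. Without adjustment, 60 of the 190 had a p under 0.05, against 15486 of all. Each genotype left out changed the counts of rises and falls: to 3 and 0 without WT, 4 and 0 without Tlr7-/-, 0 and 0 without Tlr9-/-, 5 and 1 without Tlr7-/-Tlr9-/- and 4 and 11 without Card14-/-.

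The direction of the group depends on how arrays are scaled. Scaling each array to its 75th percentile turned the split to 64 rises and 0 falls among the 190, against 13.8% and 11% of all probes, and the median response to 0.20 against 0.02. With genotype and slide as blocks over all 12 arrays, 12 rose and 89 fell, against 20% and 29.8% of all, with medians of -0.17 and -0.10. The second slide holds only treated Tlr7-/-Tlr9-/- and Card14-/- arrays. The response with these blocks therefore rests on WT, Tlr7-/- and Tlr9-/- skin and is not an average over all genotypes. On 10 of the 190 probes every treated array was above every untreated one and on 29 every treated array was below. These are 5.26% and 15.3%, against 8.7% and 11.8% of all probes.

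Rpsa codes for a small subunit protein that also serves as a laminin receptor. Its untreated levels were 17.33 in WT, 17.38 in Tlr7-/-, 17.44 in Tlr9-/-, 17.45 in Tlr7-/-Tlr9-/- and 17.38 in Card14-/- skin. The treated levels were 17.78, 17.73 and 17.69 in the first of these genotypes, 17.68 and 17.67 in Tlr7-/-Tlr9-/- and 17.52 and 17.63 in Card14-/- skin. All treated arrays were above all untreated ones, and the average rise was 0.29 ± 0.08 (SE; adjusted p = 0.0402), or 1.23-fold, in 5 of 5 genotypes. A second Rpsa probe gave 0.24 (adjusted p = 0.0583).

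Rpl7a, a large subunit protein, had the largest fall among the genes that passed on their brightest probe. Its untreated levels were 16.79, 16.61, 16.49, 16.74 and 16.53 in WT, Tlr7-/-, Tlr9-/-, Tlr7-/-Tlr9-/- and Card14-/- skin. The treated levels were 15.95, 16.06 and 16.01 in the first 3 genotypes, 16.29 and 16.36 in Tlr7-/-Tlr9-/- and 16.39 and 16.45 in Card14-/- skin. No treated array reached an untreated one, and the difference was -0.48 ± 0.12 (adjusted p = 0.0349), a 1.39-fold fall, while the second Rpl7a probe gave -0.01 (adjusted p = 0.960).

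Rpl7 codes for an RNA-binding protein of the large subunit. It read 16.83, 16.99, 16.99, 17.04 and 16.85 in the untreated skin of the 5 genotypes in the same order. After IMQ it read 16.15, 16.39 and 16.42, then 16.62 and 16.63 in Tlr7-/-Tlr9-/- and 16.74 and 16.78 in Card14-/- skin. The groups did not overlap, and the fall was 0.47 on the log2 scale (-0.47 ± 0.11; adjusted p = 0.0304). A second bright probe gave -0.18 (adjusted p = 0.0905), and a dimmer one (mean level 9.66) went the other way, with 0.64 (adjusted p = 0.0199).

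Rpl15, a large subunit protein, was read by bright probes that gave alike results. Its untreated levels were 16.15, 16.10, 16.19, 16.15 and 16.10. The treated levels were 15.42, 15.76 and 15.69, then 15.88 and 15.87 in Tlr7-/-Tlr9-/- and 16.00 and 15.95 in Card14-/- skin. Both probes fell, the brighter by 0.39 (-0.39 ± 0.11; adjusted p = 0.0460) and the other by 0.45 (-0.45; adjusted p = 0.0378).

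Rpl30, which binds a kink-turn in RNA within the large subunit, had the smallest of the 4 falls. It read 16.26, 16.43, 16.43, 16.50 and 16.33 in untreated skin and 16.01, 16.13, 16.17, 16.13, 16.17, 16.18 and 16.21 on the treated arrays in the same order. The gap between the groups was narrow, with -0.26 ± 0.07 (adjusted p = 0.0483). The other probes gave -0.22 (0.0691) and, on a dimmer one (mean level 10.47), -0.04 (0.760). After scaling to the 75th percentile the value on the brightest probe was 0.02 (adjusted p = 0.822). In each of these 5 genes all 5 genotypes gave the same direction, and treated WT skin lay farthest from its untreated array in each but Rpl30, where Tlr7-/-Tlr9-/- skin did.

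**Figure D2:**
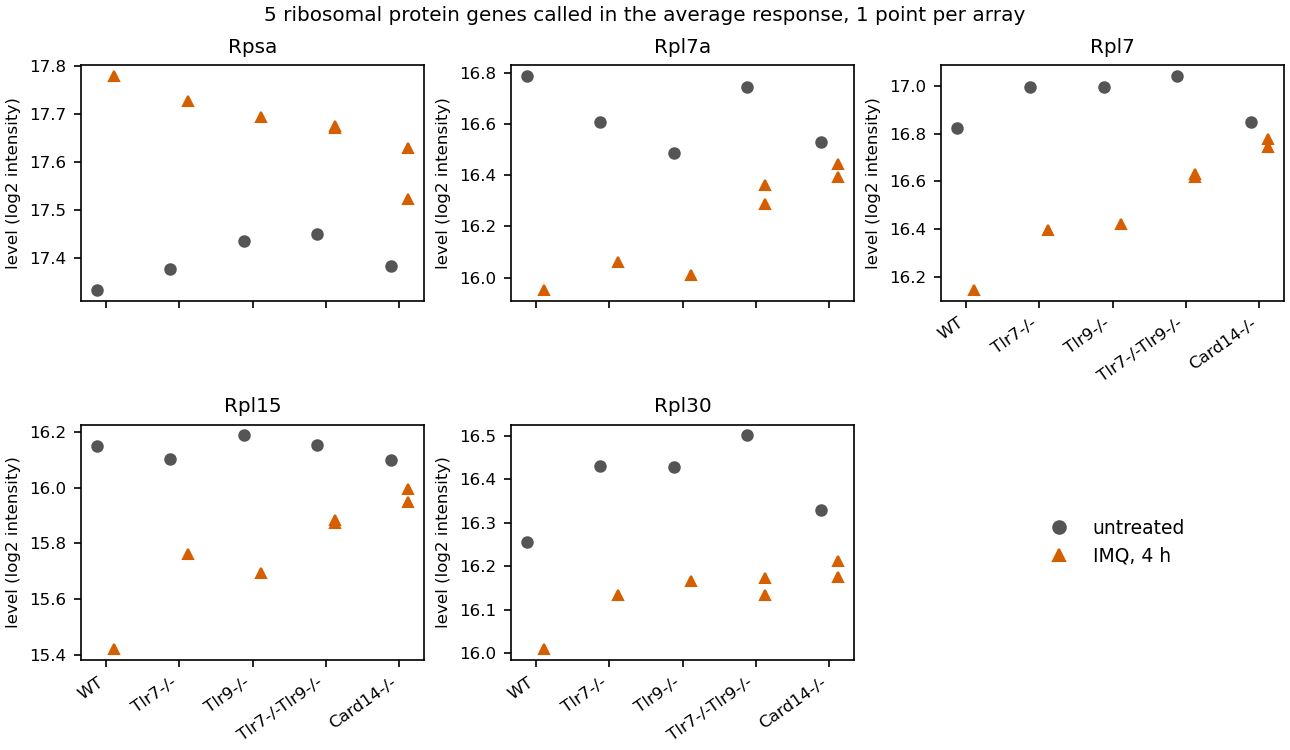
Log2 intensity of 5 genes that passed the test in the average response, 1 point an array, by genotype, with untreated arrays as circles and IMQ arrays (4 h) as triangles. The vertical axes differ between panels and do not start at 0. Treated arrays lie above untreated ones for Rpsa and below them for Rpl7a, Rpl7, Rpl15 and Rpl30.

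Other calls came from second probes of genes. Falls on bright probes were seen for Rpl26 (-0.31 and -0.44), Rpl31 (-0.35), Rpl23a (-0.37), Rpl21 (-0.40) and Rpl3 (-0.49). Rises came from 6 dim probes outside the top 10%, those of Rps13 (0.93), Rpl41 (0.92), Rps9 (0.66), Rpl7 (0.64), Rpl6 (0.61) and Rps2. The Rps2 probe read 2.88 to 4.08 on untreated arrays, where 1 of 5 was well above background, and 5.32 to 8.44 on treated arrays, where 7 of 7 were. It lies downstream of the Rps2 probe printed 10 times, and the bright Rps2 probes gave -0.24 and -0.35 and did not pass the test. Probes of 28 of the 61 genes with several probes differed in sign.

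Several well-known members did not pass the test on their brightest probe, which is the probe given here. Rplp1, Rps27l, Rpl36al, Rps27, Rpl36a and Rps4x each had another probe of opposite sign. It gave 0.27 for Rplp1 and 0.11 for Rps27l, and neither passed. Another Rpl3 probe did pass, with the fall of -0.49 given above. The stalk protein genes had average responses of -0.09 ± 0.09 for Rplp0 (adjusted p = 0.442), -0.16 ± 0.08 for Rplp1 (0.181) and 0.03 ± 0.07 for Rplp2 (0.796). Of the paralogues, some of which replace their partners in particular tissues, none of 7 passed: Rpl3l, the muscle form of Rpl3, gave -0.32 ± 0.10 (0.0697) and Rps27l, a p53 target, -0.24 ± 0.09 (0.103). Rpl22l1 gave -0.18 ± 0.08 (0.134), Rpl7l1 -0.37 ± 0.20 (0.210), Rpl36al 0.11 ± 0.11 (0.445), Rpl39l 0.02 ± 0.14 (0.917) and Rps4l 0.02 ± 0.08 (0.876). Their partners gave -0.06 ± 0.08 for Rpl3 (0.593), 0.01 ± 0.07 for Rps27 (0.936), 0.02 ± 0.07 for Rpl22 (0.805), 0.11 ± 0.10 for Rpl36a (0.403), -0.24 ± 0.07 for Rpl39 (0.0628) and -0.25 ± 0.09 for Rps4x (0.0906). Rpl10, whose paralogue Rpl10l was too dim, gave -0.29 ± 0.11 (0.105). Of ribosomal proteins outside the name rule, Fau (level 18.14) gave -0.02 ± 0.07 and Gnb2l1, the RACK1 scaffold (17.50), -0.04 ± 0.09, with adjusted p of 0.882 and 0.746. Rps19bp1 gave 0.16 ± 0.08 (adjusted p = 0.190).

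**Figure D3:**
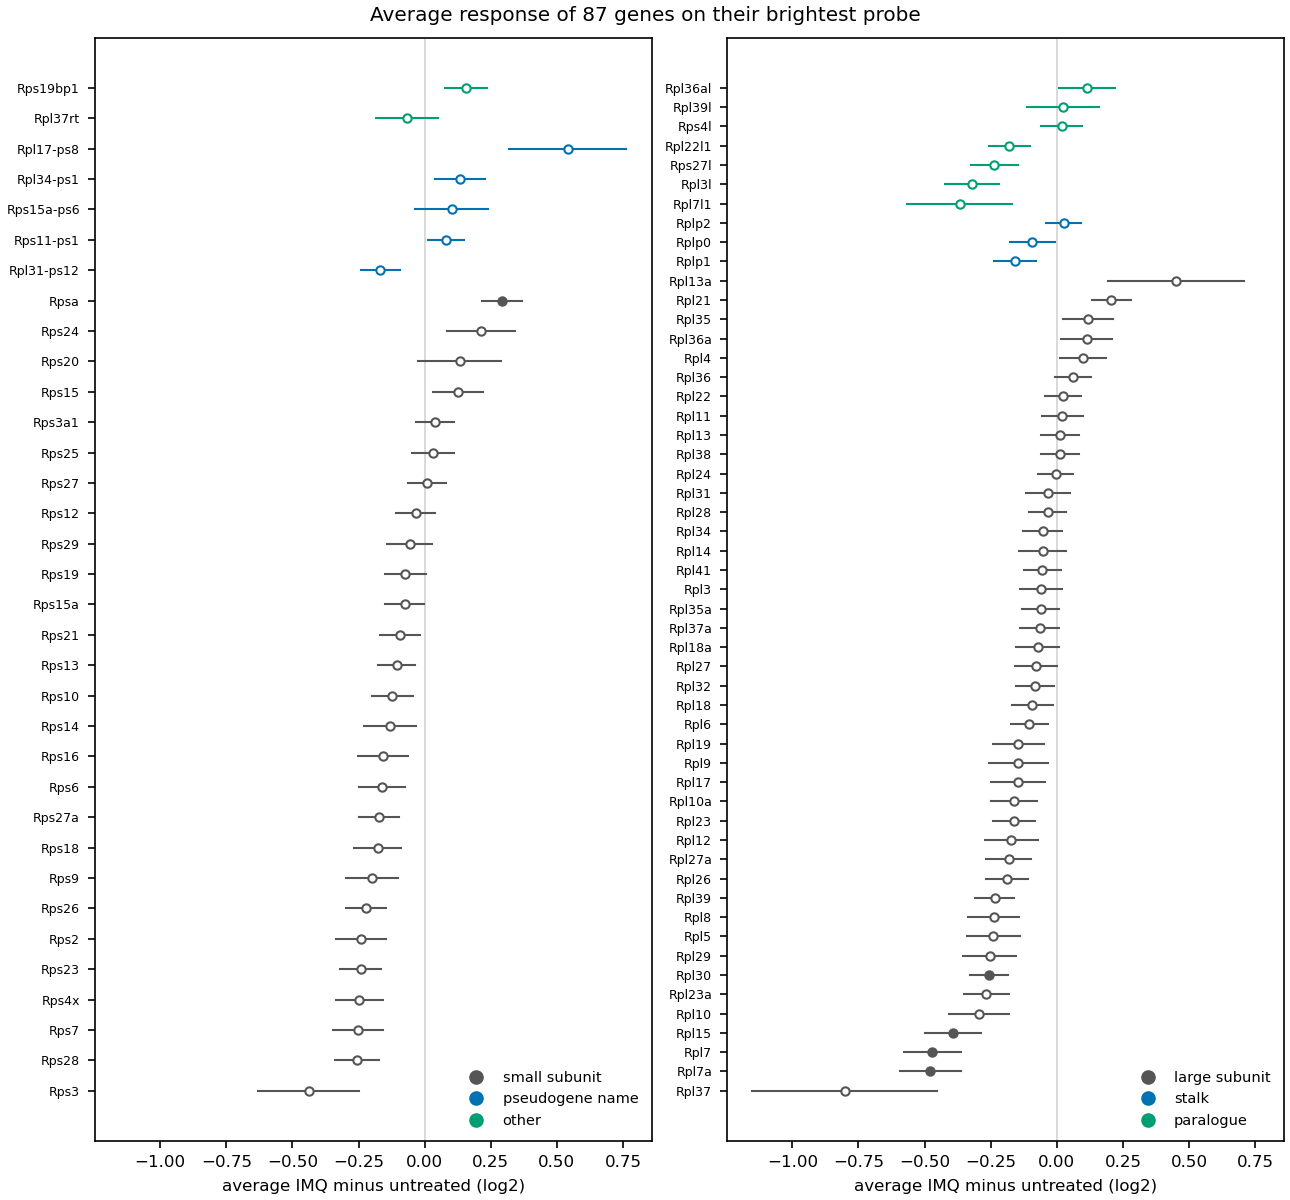
Average response (IMQ minus untreated, log2; point and SE over 5 genotypes) of 87 of the 91 genes on their brightest probe, by class, with filled points for adjusted p under 0.05. The 5 filled points run from -0.48 (Rpl7a) to 0.29 (Rpsa), and Rpl37, with the largest negative value, is read by a probe near background and did not pass.

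In single genotypes the spread came only from the repeat arrays (2 residual degrees of freedom), and single arrays were assumed to vary like them; a probe was called at an adjusted p under 0.05 and a difference of at least 0.5. WT skin had 7 rises and 22 falls among the 190 probes, against 15.7% and 20.5% of all probes. Tlr7-/- skin had 6 and 3, against 10.3% and 9.75%, and Tlr9-/- skin 7 and 8, against 12.3% and 13.3%. Tlr7-/-Tlr9-/- skin had 13 rises and 1 fall, against 8.89% and 8.11%, and Card14-/- skin 5 and 1, against 6.35% and 4.86%. The 3713 probes in the top 10% of level are a closer reference. They had 356 rises and 458 falls in WT, 272 and 156 in Tlr7-/- and 254 and 182 in Tlr9-/- skin. The counts were 236 and 131 in Tlr7-/-Tlr9-/- and 137 and 93 in Card14-/- skin. The 163 ribosomal protein probes among them had 2 and 19, 1 and 2, 2 and 7, 8 and 0, and 0 and 0 in the same order. Without 1 of the repeat arrays, which leaves 1 residual degree of freedom, 28 or 29 probes were called in WT skin, 8 in Tlr9-/- skin (without either Tlr7-/-Tlr9-/- array) or 0 (without either Card14-/- array), and 0 in the other 3 genotypes.

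After scaling to the 75th percentile the split was again different. WT skin then had 28 rises and 14 falls (20.4% and 14.3% of all probes), Tlr7-/- skin 17 and 0 (12.4% and 7.57%) and Tlr9-/- skin 19 and 3 (16.1% and 9.14%). Tlr7-/-Tlr9-/- skin had 68 and 1 (10.3% and 8.84%) and Card14-/- skin 10 and 1 (6.69% and 4.96%).

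By their medians, hair follicle genes differed more between genotypes than any other marker list, in the same directions under all 5 scalings. Of 12, 7 rose in WT (median 1.16) and 7 in Card14-/- skin (2.05), while 10 fell in Tlr7-/- (-4.84), 7 in Tlr9-/- (-0.68) and 9 in Tlr7-/-Tlr9-/- skin (-2.37). Melanocyte genes had 4 falls of 6 in WT and 4 rises and 1 fall in Card14-/- skin. The part of these markers in the ribosomal protein responses was not tested.

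The median response of the ribosomal protein probes was -0.22 in WT, -0.14 in Tlr7-/-, -0.18 in Tlr9-/-, -0.03 in Tlr7-/-Tlr9-/- and 0.02 in Card14-/- skin. That of all probes was -0.13, -0.05, -0.10, -0.04 and -0.02. With the median of all probes as reference, the members stood at -0.09, -0.09, -0.08, 0.004 and 0.03, and 119, 128, 121, 90 and 72 of the 190 were below it. The negative values belong to the 3 genotypes whose arrays are all on 1 slide. The sign depends on the normalization: relative to all probes, the deposited table gave 0.03, -0.01, 0.01, 0.04 and 0.03, and scaling to the 75th percentile gave 0.05, 0.10, 0.10, 0.39 and 0.24.

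**Figure D4:**
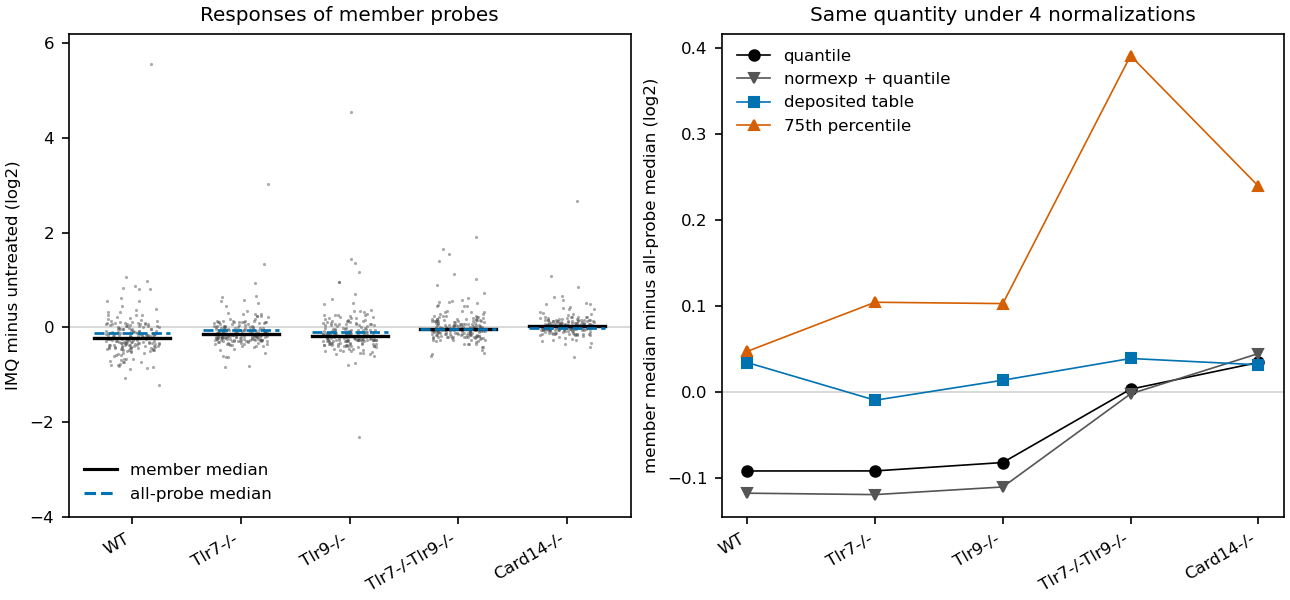
Left, IMQ minus untreated (log2) of the 190 ribosomal protein probes in each genotype, 1 point a probe, with the median of these probes (solid) and of all probes (dashed). Right, the difference between both medians under 4 normalizations, where it is below 0 in WT, Tlr7-/- and Tlr9-/- skin with quantile normalization (-0.09 to -0.08) and above 0 in all 5 genotypes after 75th percentile scaling (0.05 to 0.39).

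Of the genes on their brightest probe, the largest falls in WT skin were those of Rps3 (-1.22 ± 0.05, adjusted p = 0.00512), Rpl7l1 (-1.08 ± 0.05, 0.00542) and Rpl7a (-0.84 ± 0.07, 0.00756). Rps3, a small subunit protein at the mRNA entry, read 16.56 on the untreated WT array and 15.88 to 16.07 on the other untreated arrays, and 15.34 after IMQ in WT against 15.49 to 16.03 in the other genotypes. Its difference therefore lies partly in the single untreated WT array, and a second probe gave -0.47 (0.0329). The second Rpl7a probe gave -0.19 (0.221). Rpl7l1, a paralogue of Rpl7, read 8.11 untreated and 7.03 treated in WT skin.

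In Tlr7-/- skin Rps20 rose (0.57 ± 0.07, adjusted p = 0.0237), and Rpl7l1 (-0.63 ± 0.05, 0.0161), Rpl7 (-0.60 ± 0.06, 0.0172) and Rpl7a (-0.55 ± 0.07, 0.0247) fell. The other probes were not called: they gave 0.13 and, near the dim end, -0.15 for Rps20, -0.19 and 0.52 for Rpl7 and -0.20 for Rpl7a. In Tlr9-/- skin Rpl7 fell (-0.57 ± 0.06, 0.0145), while its other probes gave -0.23 and 0.59 and were not called. Rps20 on this probe read from 17.04 (treated Tlr9-/-) to 17.94 (treated Tlr7-/-), and its untreated levels already ran from 17.22 to 17.83.

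In Tlr7-/-Tlr9-/- skin Rpl13a, a large subunit protein also known for a role in translational control in the interferon response, rose by the largest amount (1.65 ± 0.22, adjusted p = 0.0262). It read 14.72 on the untreated array of that genotype and 15.84 to 16.57 on the other 11 arrays, so this value rests on 1 low untreated array. Rps24 also rose (0.72 ± 0.05, 0.0160), with 16.71 on that untreated array against 17.02 to 17.20 on the other untreated arrays and 17.46 and 17.41 after IMQ. Of its other probes, 1 went the same way, with 0.90 (adjusted p = 0.0400). The rest went the other way, with -0.17 (0.106) and, on the dimmest, -0.61 (0.0287). Rpl17-ps8 rose as well (1.54 ± 0.10, 0.0155), from 13.17 to 14.80 and 14.61. In Card14-/- skin Rpl3l fell (-0.63 ± 0.05, 0.0212).

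The next question was whether the response differed between genotypes. Deficiency of Tlr7, as the response of the Tlr7-/- and Tlr7-/-Tlr9-/- genotypes against that of the other 3, gave no call among the 190 probes, and none among all probes (0%; 3 residual degrees of freedom, limma). At an unadjusted p under 0.05 there were 3 of the 190 and 1055 of all. The comparison rests on 5 differences, and its smallest adjusted p over all probes was 0.9995 (limma). The 12 hair follicle genes, with a median difference of -4.53, also gave no call. The absence of calls therefore does not show whether the response depends on Tlr7.

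Responses minus the WT response all share the same untreated and treated WT arrays and are given side by side. For Tlr7-/-, 1 ribosomal protein probe was higher and 0 lower, against 1.18% and 1.94% of all probes. For Tlr9-/- no probe was called, against 0.11% and 0.277%, while at an unadjusted p under 0.05 there were 23 of the 190 and 8478 of all. For Tlr7-/-Tlr9-/-, 12 were higher and 3 lower, against 12.3% and 10.9%, and for Card14-/-, 25 were higher and 3 lower, against 13.9% and 11.3%. After 75th percentile scaling the last 2 splits were 37 and 3 (9.35% and 13.5% of all probes) and 21 and 6 (10.2% and 13.9%), and without any 1 of the repeat arrays no difference from WT was called. The medians of these differences were 0.08, 0.06, 0.21 and 0.24 for ribosomal protein probes and 0.07, 0.04, 0.10 and 0.10 for all probes. With quantile normalization, 259 of the 3713 probes in the top 10% of level were higher and 263 lower for Tlr7-/-Tlr9-/-. For Card14-/- the counts were 361 and 343. The 163 ribosomal protein probes among them had 8 and 1 for Tlr7-/-Tlr9-/- and 21 and 2 for Card14-/-.

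Read on their brightest probe, Rps3, Rpl7l1 and Rpl7a had a higher response in Card14-/- than in WT skin, by 1.35 ± 0.07 (adjusted p = 0.0163), 1.15 ± 0.07 (0.0163) and 0.73 ± 0.09 (0.0253). The response of Rps20 (-0.68 ± 0.10, 0.0277) was lower than in WT. The other probes did not pass: they gave 0.43 for Rps3, -0.05 for Rpl7a, and -0.26 and 0.31 for Rps20. In Tlr7-/-Tlr9-/- skin the response was higher by 1.48 ± 0.16 for Rpl17-ps8 (0.0219), 1.24 ± 0.07 for Rpl7l1 (0.0153) and 0.91 ± 0.07 for Rps3 (0.0178). The single call for Tlr7-/- was Rps3 (0.87 ± 0.08, 0.0453). The second Rps3 probe gave 0.46 (0.0848) in Tlr7-/-Tlr9-/- and 0.19 (0.442) in Tlr7-/- skin. Every Rps3 difference contains the high untreated WT array.

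Treated Card14-/- and treated Tlr7-/-Tlr9-/- skin, the 2 groups with repeat arrays and both on the second slide, differed in 0 of the 190 probes in either direction, against 1.3% higher and 0.598% lower of all probes. Calls were also few among bright probes, with 18 higher and 22 lower of the 3713 in the top 10% of level. At an unadjusted p under 0.05 there were 18 of the 190 and 9327 of all (limma), and the median difference was 0.02 against -0.02. Between the same arrays 10 of the 12 hair follicle genes were higher in Card14-/- skin, with a median difference of 6.61, and 4 of 6 melanocyte genes (0.70).

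Where a gene had separate bright probes, their place along the gene was compared; this was looked at after the data were seen. Probes were used when within 4 log2 units of the gene's brightest, on the same chromosome and strand, without overlap and at most 100000 bases apart, and 47 ribosomal protein genes had such a pair. The probe nearer the 5′ end had the lower average response in 34 genes and the higher in 13, with a median difference of -0.10. Among 177 other genes with both probes in the top 10%, the 5′ probe was lower in 99 and higher in 78, with a median of -0.03, and among all 5722 other genes it was lower in 2366, with a median of 0.10. Rpl21 had the largest difference, with -0.40 ± 0.09 on the 5′ probe (adjusted p = 0.0301) and 0.21 ± 0.07 on the 3′ probe (0.0890), lower in 5 of 5 genotypes. Rpl7a (-0.47), Rplp1 (-0.46), Rps3a1 (-0.44) and Rpl3 (-0.43) followed. By genotype the median difference was -0.14 in WT, -0.07 in Tlr7-/-, -0.14 in Tlr9-/-, -0.13 in Tlr7-/-Tlr9-/- and -0.03 in Card14-/- skin. These pairs share the labelled RNA of each array, and the part of labelling, RNA quality or transcript forms in them was not tested.

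**Figure D5:**
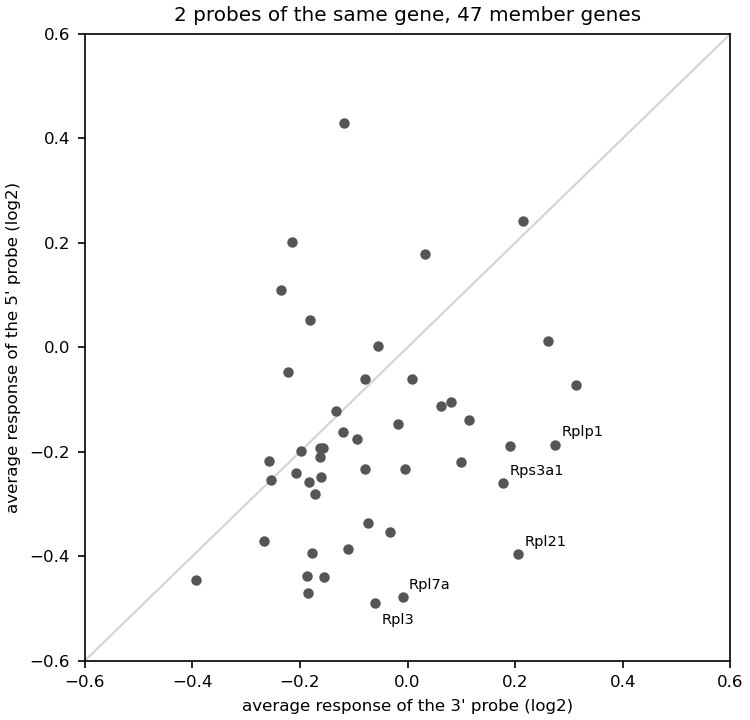
Average response (log2) of the probe nearer the 5′ end against that of the probe nearer the 3′ end in 47 ribosomal protein genes, 1 point a gene, with the line of equal values. In 34 of the 47 genes the point lies below the line, farthest for Rpl21, and in 13 above it.

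The base composition of the probe also went with the response, likewise looked at after the data were seen. Over the 163 ribosomal protein probes in the top 10%, the share of A in the probe had a Pearson correlation of 0.42 with the average response (Spearman 0.35), and of 0.34, 0.30, 0.41, 0.46 and 0.08 in WT, Tlr7-/-, Tlr9-/-, Tlr7-/-Tlr9-/- and Card14-/- skin. The 52 probes with at most 26.7% A had a median average response of -0.17 and the 42 with at least 36.7% A one of 0.06. Among the other 3550 probes in the top 10% the correlation was 0.12 (Spearman 0.01). The share of A and G, that of G and C and the longest run of A and G were also looked at. Of these properties, A had the strongest correlation with the average response in the ribosomal protein probes. For the longest run of A and G the order was the reverse, with 0.20 in ribosomal protein probes (Spearman 0.03) and 0.39 in the others (Spearman 0.11). On the untreated Tlr7-/-Tlr9-/- array alone, set against the median of the other untreated arrays, the correlation with the share of A was -0.41. This array is subtracted in the Tlr7-/-Tlr9-/- response, so it enters the 0.46 and the 0.42 with the opposite sign. The points share arrays and labelled RNA, and genes with several probes count more than once.

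Genes that act with the ribosomal proteins, and those of the separate mitochondrial ribosome, were read on their brightest probe from lists chosen with earlier results known. Their counts in the average response stand against the same 9.89% and 14.4% of genes. Of 26 translation factors and other TOP genes, 0 rose and 1 fell, Naca of the nascent chain complex (-0.29, adjusted p = 0.0434), with a median of -0.04 against -0.08 for all genes; this split turned with the scaling, to 5 and 0 after 75th percentile scaling and 0 and 5 with normexp background correction. Eef1a1, the main elongation factor, gave 0.18 (0.200). Of 50 ribosome biogenesis genes 14 rose and 0 fell, with a median of 0.12, and under the 4 other scalings 9 to 18 rose and 0 fell. By genotype 6 rose and 4 fell in WT (median -0.002), 7 and 1 in Tlr7-/- (0.13), 7 and 0 in Tlr9-/- (0.12), 12 and 0 in Tlr7-/-Tlr9-/- (0.32) and 11 and 0 in Card14-/- skin (0.32), so the higher medians belong to the treated arrays of the second slide. By the same calls 3369 of all 24106 genes rose and 4984 fell in WT skin. The counts were 2278 and 2429 in Tlr7-/-, 2581 and 3218 in Tlr9-/-, 2241 and 1972 in Tlr7-/-Tlr9-/- and 1578 and 1275 in Card14-/- skin. The Tlr9-/- median was -0.01 with median scaling, and the other signs held under all 5 scalings. Relative to all genes the WT median changed sign. It was 0.14, 0.09 with normexp and 0.10 in the deposited table, but -0.02 with 75th percentile and median scaling. Rrp12, an export factor of pre-ribosomes, rose by 0.77 ± 0.08 (0.00876), and Ppan, Nolc1, Bysl and Nop56, nucleolar assembly factors, rose by 0.62, 0.61, 0.61 and 0.55 (adjusted p 0.0109, 0.0125, 0.00968 and 0.0111), each in 5 of 5 genotypes. Of 19 ribosomal protein chaperones and regulators 3 rose and 2 fell: Myc, which drives ribosome biogenesis (0.69 ± 0.14, 0.0242), Grwd1, a chaperone of Rpl3 (0.67 ± 0.08, 0.0100), Larp4 (0.41 ± 0.07, 0.0162), Mycn (-1.40 ± 0.36, 0.0414) and Ipo7 (-0.33 ± 0.09, 0.0488). Larp1 gave 0.27 ± 0.10 (0.105). Of 77 mitochondrial ribosomal protein genes 2 rose and 4 fell (5 and 2 after 75th percentile scaling), with a median of -0.07, among them Mrpl12 (0.34, 0.0308) and Mrpl35 (-0.73, 0.0383). The Mrpl35 probe was dim, with a mean level of 5.17.

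Markers of the cell types in ear skin also moved, and their part in the ribosomal protein values was not tested. Rises and falls were 5 and 1 of 7 T cell genes (mean level 9.82 to 10.00 untreated, 10.08 to 10.63 treated), 6 and 1 of 8 endothelial genes (9.36 to 9.88, then 9.81 to 10.53), 5 and 0 of 7 erythroid genes and 4 and 0 of 8 Langerhans and dendritic cell genes. They were 2 and 0 of 8 macrophage, 1 and 0 of 7 neutrophil and 2 and 0 of 6 adipocyte genes. Falls prevailed among 12 cell cycle genes, with 0 and 5 (9.37 to 9.82, then 8.67 to 9.45), 8 differentiated keratinocyte genes, with 0 and 3 (15.09 to 15.30, then 14.56 to 15.01), 8 fibroblast genes, with 0 and 3, and 6 Schwann cell genes, with 0 and 3. Muscle had 0 and 2 of 8, cartilage 0 and 1 of 6, melanocyte 0 and 1 of 6, sebaceous 1 and 1 of 6, and basal keratinocyte 0 and 0 of 6. The 12 hair follicle genes gave no call on average, with mean levels from 9.27 to 12.15 untreated and 6.83 to 12.27 treated, but moved in every single genotype, as given above. Basal keratinocyte genes such as Krt14 and Krt15, which mark epidermis, had mean levels of 15.56 to 15.66 untreated and 15.33 to 15.66 treated. After scaling to the 75th percentile the differentiated keratinocyte genes had 3 rises and 2 falls, the basal ones 2 and 0, and muscle 1 and 0.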

How the data were processed

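Arrays were grouped by their labels, slides were taken from the file headers, and the members and gene lists were chosen with earlier results of these data known. The raw files hold intensity per spot, per the file headers written by Agilent Feature Extraction 10.7.3.1 (the submitters' processing notes name 10.5.1.1): the processed signal is background-subtracted and detrended within an array but not normalized between arrays, and the mean and background signals are uncorrected. The authors also deposited a table of log2 values, which were background-subtracted and then normalized with limma by what the design text calls a quartile method; it was used as an alternative.

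Control spots and 1602 spots with an outlier flag were left out, spots of a probe were averaged, and 235 probes with no unflagged spot on some array were dropped. log2 of the processed signal was quantile normalized and tested with limma 3.58.1 (lmFit, eBayes) in R 4.3.3 over all 37125 probes kept. For the average response repeat arrays were averaged first and genotype was a block. A gene was read on its brightest probe. Genes named are the 10 largest changes each way past the threshold in the average response, the 3 largest each way in each genotype and each difference from WT, and always the stalk, paralogue and outside-rule genes; others were named after their values were seen. Some genes these rules take are not reported here, but stay in every count and median. The scripts were tested on simulated data. Alternatives covered scaling (75th percentile, median, normexp with offset 50, the deposited table), filters, slide and replicate blocks, size limits and arrays left out; leaving out every probe with a flagged spot was added after seeing the data. The number of arrays limits the precision.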

Additional observations from a re-analysis of the deposited data

Results flagged for a closer look

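Among the genes named above, the responses of 8 gene and genotype pairs differed from the WT response by the test of the difference itself (limma, over all probes). All share the single untreated and single treated WT array. The 8 are not all the calls. On the brightest probe, 1 of the 91 genes was higher and 0 lower in Tlr7-/- skin, against 309 and 507 of all 24106 genes. The counts were 4 and 1 in Tlr7-/-Tlr9-/- skin, against 3007 and 2305, and 13 and 2 in Card14-/- skin, against 3316 and 2460. For Rps3 the difference was 0.87 in Tlr7-/-, 0.91 in Tlr7-/-Tlr9-/- and 1.35 in Card14-/- skin, with 16.56 on the untreated WT array against 15.88 to 16.07 on the other untreated arrays. For Rpl7l1 it was 1.24 in Tlr7-/-Tlr9-/- and 1.15 in Card14-/- skin, with 8.11 on the untreated WT array against 7.61 to 7.76. Rpl17-ps8 in Tlr7-/-Tlr9-/- skin gave 1.48, Rpl7a in Card14-/- skin 0.73 and Rps20 in Card14-/- skin -0.68. None of the differences passed the adjusted threshold when either repeat array of either genotype was left out, which leaves 1 residual degree of freedom.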

How the results depend on the processing

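Of 315 counts, medians and levels set beside an alternative, 194 stayed close to the main value. Counts had to stay within 1.5 times. Medians had to stay within 0.060 in the average response and within 0.025 in a single genotype. With 75th percentile scaling the average response had 64 rises and 0 falls and a median of 0.18 relative to all probes; by genotype (WT, Tlr7-/-, Tlr9-/-, Tlr7-/-Tlr9-/-, Card14-/-) the medians were 0.048, 0.10, 0.10, 0.39 and 0.24, the probes called 17 in Tlr7-/-, 69 in Tlr7-/-Tlr9-/- and 11 in Card14-/- skin, the differences from WT 0 for Tlr7-/- and 40 for Tlr7-/-Tlr9-/-, and the level over all probes 8.15. Median scaling gave 33 rises, 1 fall, the same medians, 14, 79 and 10 probes called, and differences of 0 for Tlr7-/-, 96 for Tlr7-/-Tlr9-/- and 49 for Card14-/-. Normexp gave 32 falls, medians of -0.12, -0.12 and -0.11 in WT, Tlr7-/- and Tlr9-/- skin, 3 calls in Card14-/- skin, differences of 7, 5 and 23 for Tlr7-/-, Tlr9-/- and Tlr7-/-Tlr9-/- and a level of 7.91. The deposited table gave medians of 0.026 on average and 0.035, -0.0092, 0.014 and 0.039 in the first 4 genotypes, 3 calls in Card14-/- skin, 5 differences for Tlr7-/- and a level of 8.04. Its rises and falls were 12 and 10 on average, 9 and 14 in WT and 9 and 3 in Tlr9-/- skin.

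Keeping only probes well above background on all 12 arrays gave 20 falls and 7 and 2 differences for Tlr7-/- and Tlr9-/-. With no filter there were 5 rises and 6 falls, medians of -0.19, -0.14, -0.15 and -0.044 in the first 4 genotypes, 9 calls in Tlr7-/-Tlr9-/- and 3 in Card14-/- skin, and 3 and 2 differences for Tlr7-/- and Tlr9-/-. Leaving out every probe with a flagged spot, chosen after seeing the data, kept 141 of the 190 probes and gave medians of -0.12, -0.11 and 0.059 in WT, Tlr9-/- and Tlr7-/-Tlr9-/- skin. Without pseudogenes, paralogues and other names the level was 8.33 in place of 8.23. The mean of a gene's probes gave 2 genes in Card14-/- skin and 0 and 8 differences for Tlr7-/- and Tlr7-/-Tlr9-/-. With no size limit the calls were 95, 37, 70, 37 and 14 by genotype and the differences 27 and 56 for Tlr7-/-Tlr9-/- and Card14-/-; with a limit of 1 they were 4, 2, 3, 5 and 2, and 0, 4 and 3 differences for Tlr7-/-, Tlr7-/-Tlr9-/- and Card14-/-. The 12 arrays as separate values gave 15 rises and 41 falls. Genotype and slide as blocks gave 89 falls, with a response that rests on WT, Tlr7-/- and Tlr9-/- skin only. Where a setting changed a call, the cause was not tested.

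The replicate number as a block over 12 arrays gave 11 rises and 32 falls, and over the 4 repeat arrays 0 calls between Card14-/- and Tlr7-/-Tlr9-/- skin. Deviations of same-numbered arrays from their group means had a correlation of 0.03 over all probes (0.21 over the 190). With 2 arrays in a group the deviations mirror each other, so both pairs give the same value. The labels give no other link between same-numbered arrays, and whether they share a batch was not tested.

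Leaving out each genotype or each repeat array in turn gave 0 to 9 rises, 0 to 12 falls and a median of -0.06 to -0.02 in the average response. For genotypes the rises and falls were 3 and 0 without WT, 4 and 0 without Tlr7-/-, 0 and 0 without Tlr9-/-, 5 and 1 without Tlr7-/-Tlr9-/-, and 4 and 11 without Card14-/-. Leaving out each repeat array gave 28 to 29 calls in WT, 0 to 8 in Tlr9-/- and 0 in Tlr7-/-, Tlr7-/-Tlr9-/- and Card14-/- skin, 0 differences from WT and 0 calls for Tlr7. The medians were then -0.09 in WT, -0.09 in Tlr7-/-, -0.08 in Tlr9-/-, 0.0015 to 0.01 in Tlr7-/-Tlr9-/- and 0.03 to 0.05 in Card14-/- skin. Of the 5 genes named, Rpl30 changed sign, at 0.024 with 75th percentile scaling; the others kept their direction in all settings run, with Rpl7a from -0.62 to -0.18, Rpl7 from -0.62 to -0.15, Rpl15 from -0.52 to -0.13 and Rpsa from 0.26 to 0.79, and each of these 4 lost its call in 6 or 7 settings, while Rpl30 kept its call in 10 of 22.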
